A study of Mus musculus with 12 samples.

Results

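The 10 genes described here encode proteins that switch mitogen-activated protein kinase (MAPK) signaling off again: the dual-specificity phosphatases Dusp1, Dusp2, Dusp4, Dusp5, Dusp6, Dusp10 and Dusp16, and the Ras pathway inhibitors Spry1, Spry2 and Spred1. They were chosen by name, with earlier results of these data known, and all 10 were found among the 55335 genes listed. Bulk RNA-seq had been performed on bone marrow-derived dendritic cells (BMDCs) from C57BL/6 mice, grown from marrow with the cytokine GM-CSF for 6 days with fresh medium every 2 days. All 4 groups had the CreER genotype, with the Cre recombinase driven from Rosa26 and an intact Ctcf gene. The mice of the study were 8 to 12 weeks old. WT cells were unstimulated, and WTL cells received lipopolysaccharide (LPS), a bacterial outer membrane component that triggers Toll-like receptor 4, at 100 ng/ml for 3 h. WT + JSH23 and WTL + JSH23 cells were first given JSH-23, a small molecule that keeps RelA, a subunit of NF-κB, out of the nucleus, at 100 µM for 3 h, without and with the same LPS stimulation. Each group had 3 libraries, numbered 4 to 6 without JSH-23 and 1 to 3 with it. Whether these sets of libraries were prepared together was not stated. A difference between the sets, if any, cannot be told apart from an effect of JSH-23. Whether the groups without JSH-23 received its solvent was not stated. The study describes 4-OH-tamoxifen in marrow cultures as a means to delete Ctcf in knockout and not in WT cells. Whether WT cultures received it was not plainly stated. The study describes the libraries as biological replicates, and the labels tie none of them to an animal.

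MAPKs (ERK, JNK and p38) relay signals from Toll-like and growth factor receptors to transcription factors, and they are active only while a threonine and a tyrosine in their activation loop are both phosphorylated. DUSPs remove both phosphates, and because many DUSP genes are themselves transcribed in response to MAPK signaling they form a negative feedback loop. Sprouty and Spred proteins act further upstream, where they limit activation of the Ras-Raf-ERK branch. In dendritic cells and macrophages, DUSP1 in particular is known to restrain p38 and JNK after LPS and with them the output of inflammatory cytokines.

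The 2 promoter stretches below are shown because they belong to the most abundant members, which moved in opposite directions after JSH-23. They come from RefSeq (GRCm38.p6), run 5′ to 3′ on the strand of the gene, and lie upstream of the RefSeq start site. Dusp1, minus strand, chr17:26508583-26508682, covers bases -210 to -111 from the start, with no annotated exon, inside an intron of a longer GENCODE Dusp1 transcript. Dusp5, plus strand, chr19:53529025-53529104, covers bases -120 to -41 and overlaps an exon of the antisense gene AC137853.2. Capitals mark cAMP response element (CRE) letters, TGACGTCA or the partial element TGACG, in the first, and both serum response elements and a partial CRE read from the other strand in the second.
Dusp1: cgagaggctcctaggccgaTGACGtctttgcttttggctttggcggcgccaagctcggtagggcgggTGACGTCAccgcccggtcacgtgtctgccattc
Dusp5: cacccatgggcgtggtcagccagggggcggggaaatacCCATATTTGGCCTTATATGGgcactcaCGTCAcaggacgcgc

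Of the 10 members, 9 had a promoter in the RefSeq table, which spans 250 bases before to 50 bases after the start, and both strands were searched. The full CRE letters were found in 1.79% of 32851 promoters and, among the 9, in Dusp1. The partial CRE, which is part of the full one, was found in 20.8% of all promoters and in Dusp1, Dusp2, Dusp5 and Dusp16. Serum response element letters were present in 1.63% of all promoters and in Dusp5, where 2 matches stood side by side. The AP-1 letters TGANTCA (7.81% of all promoters) and the NF-κB consensus (4.51%) had no match in these 9 windows. These matches describe letters, not bound sites.

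The libraries held between 24664724 and 34837847 expected counts, and 14357 genes passed the filter on low counts. Levels are compared between groups as CPM (counts as a share of the library, on a common scale) after scaling by trimmed means of M values (TMM), and between genes as the deposited TPM (transcripts, scaled to one total in every library), which correct for transcript length. A gene was said to rise or fall when its adjusted p in the edgeR quasi-likelihood test was under 0.05 over all genes tested. Spry2 was filtered out with 2 to 10 counts per library, and the other 9 members were tested. Of the 9 dendritic cell markers, 8 were present, with a summed TPM of 10047 to 10664 in WT, 13951 to 14137 in WTL, 9940 to 10042 in WT + JSH23 and 12341 to 12930 in WTL + JSH23, while Cd209a stayed under 1 TPM. The higher sum with LPS came almost wholly from the chemokine gene Ccl22, with a mean of 5179 TPM in WT and 8664 in WTL. Mean TPM was lower in WTL for Itgax (317 and 247), Ccr7 (1225 and 1048) and Batf3 (61.6 and 36.1). The mean was higher in WTL for Irf4 (44.1 in WT and 93.0 in WTL), Zbtb46 (23.5 and 39.7) and H2-Ab1 (3590 and 3897). Flt3 was also higher on average (2.94 and 3.20), with overlapping libraries. The TPM scale itself ran lower with LPS: the median change of all genes was -0.26 with limma on log2(TPM + 1) and -0.05 in edgeR. The markers were not compared as CPM, so a small fall in TPM with LPS need not be a fall in CPM. All 8 macrophage markers were detected. Their summed TPM was 1646 to 1732 in WT, 1212 to 1270 in WTL, 1036 to 1078 in WT + JSH23 and 801 to 824 in WTL + JSH23. On the TPM scale this sum was lower with LPS and with JSH-23, in the direction of the members that fell. Its fall with LPS has the same limit of scale. The 9 neutrophil markers summed to 163 to 216 TPM over all libraries, with Elane and Cxcr2 under 1 TPM in each. The 5 T cell markers summed to 2.03 to 6.09 TPM, the 5 B cell markers to at most 0.63 TPM and the 5 mast cell and basophil markers to at most 1.95 TPM. The 5 stromal markers summed to 0.36 to 0.98 TPM without LPS and 2.83 to 7.22 TPM with it, almost all from Pdgfrb, while Col3a1 was at 0 in every library. The part of these cell types in the results below was not tested, and in bulk RNA fewer cells of a type and less RNA per cell cannot be told apart.

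LPS without JSH-23 raised 7 of the 9 tested members, Dusp1, Dusp2, Dusp4, Dusp5, Dusp16, Spry1 and Spred1, where 31.0% of all tested genes rose. It lowered Dusp6, where 34.7% of all tested genes fell, and Dusp10 did not pass the test. A rise of more than 2-fold was seen in 6 members, against 7.36% of all genes (3 members with limma on log2(TPM + 1), where Dusp1 was at 0.67, Spred1 at 0.77 and Spry1 at 0.31), and a fall of more than 2-fold in Dusp6, against 9.09%. The median log2 fold change of the 9 members was 1.08 and that of all tested genes -0.05. With JSH-23 present, LPS raised 5 members, Dusp1, Dusp2, Dusp4, Dusp16 and Spred1 (27.4% of all genes), and lowered Dusp5 and Dusp6 (27.1% of all genes), with a median of 0.60 against -0.02 for all genes. More than 2-fold rises were seen in 4 members (5.85% of all genes) and a more than 2-fold fall in 1, Dusp6 (4.49%).

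**Figure D1:**
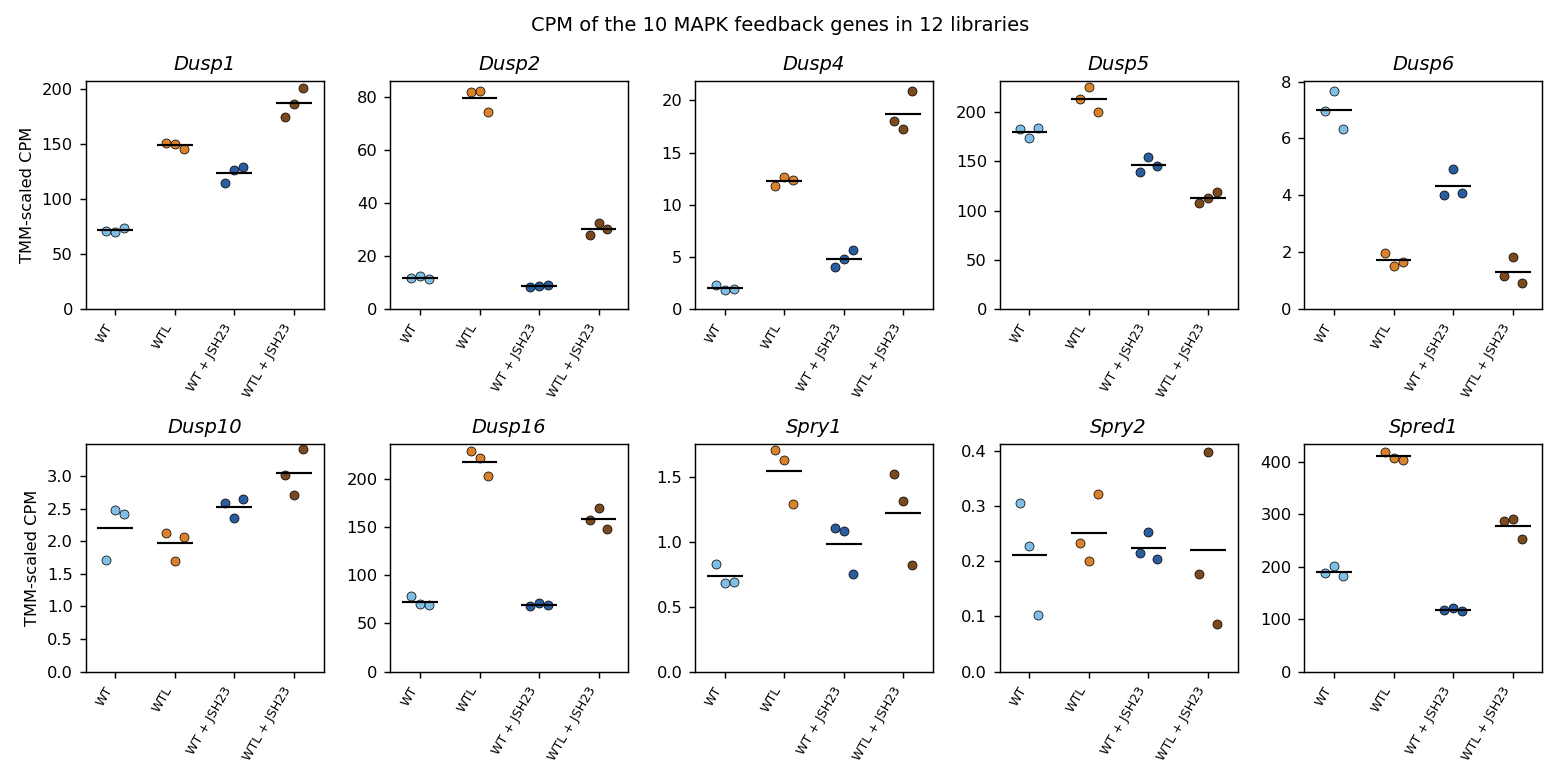
TMM-scaled CPM (vertical axis, linear, from 0) of the 10 members in the 12 libraries, with 1 point per library and a bar at the mean of each group of 3. Dusp1 and Dusp4 were highest in WTL + JSH23, Dusp2, Dusp5, Dusp16 and Spred1 in WTL, and Dusp6 in WT; Spry2 stayed at or below 0.398 CPM.

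Dusp1 encodes an inducible nuclear phosphatase that acts mainly on p38 and JNK. It stood at 71.2, 70.3 and 73.6 CPM in WT, 150.9, 150.0 and 145.1 in WTL, 114, 126 and 129 in WT + JSH23, and 174, 186 and 201 in WTL + JSH23. No libraries of different groups overlapped, and both JSH-23 groups lay above their counterparts without the inhibitor. LPS raised it by 1.05 on the log2 scale (SE 0.05, adjusted p 1.25e-13), a 2.08-fold change, and by 0.60 (SE 0.05, adjusted p 1.44e-09) with JSH-23. JSH-23 raised it by 0.78 (SE 0.05, adjusted p 6.87e-11) without LPS and by 0.33 (SE 0.05, adjusted p 1.12e-05) with LPS. The interaction, in which the LPS change of untreated cells is subtracted from that of cells given JSH-23, was -0.45 (SE 0.07, adjusted p 0.000154). The fold change was thus smaller with the inhibitor although the level after LPS was higher. The GENCODE gene (chr17:26505590-26562128, minus strand) overlaps Ergic1 on the opposite strand, which had mean TPM of 21.5 in WT, 14.9 in WTL, 30.1 in WT + JSH23 and 21.8 in WTL + JSH23. On the TPM scale, Ergic1 was thus lower with LPS, where Dusp1 was higher, and higher with JSH-23, as Dusp1 was. The TPM scale itself ran lower with LPS, as given above, and no test of Ergic1 is given. Because it was not stated whether counting used the strand, reads in the shared stretch may be uncertain. The Dusp1 count was fractional in 0 libraries, so no read pairs were seen to be divided between it and another gene.

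Dusp2 (chr2:127336159-127338376, plus strand) encodes a nuclear phosphatase of ERK and p38 that is abundant in activated blood cells. Its CPM was 11.7, 12.5 and 11.2 in WT, 81.7, 82.2 and 74.2 in WTL, 8.05, 8.43 and 8.88 in WT + JSH23, and 28.0, 32.4 and 30.0 in WTL + JSH23. WTL stood far above all other groups, and no groups overlapped. It had the largest LPS rise of the 9 tested members, at 2.75 on the log2 scale (SE 0.06, adjusted p 3.34e-19) or 6.72-fold, and the rise with JSH-23 was 1.83 (SE 0.07, adjusted p 5.78e-15) or 3.56-fold. After LPS, the JSH-23 group was 2.64-fold lower than WTL (log2 -1.40, SE 0.06, adjusted p 2.82e-14), and without LPS it was 1.40-fold lower (log2 -0.48, SE 0.08, adjusted p 4.07e-05). With an interaction of -0.92 (SE 0.10, adjusted p 2.33e-06), Dusp2 also had the largest difference in LPS response of the members that passed that test.

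Dusp4 (chr8:34807297-34819894, plus strand), whose product is a nuclear phosphatase related to DUSP1, was low at rest, at 2.32, 1.85 and 1.86 CPM in WT. It reached 11.8, 12.6 and 12.3 in WTL, 3.99, 4.81 and 5.68 in WT + JSH23, and 18.0, 17.2 and 20.9 in WTL + JSH23. As for Dusp1, the order was the same in level, with WTL + JSH23 highest, and no groups overlapped. LPS raised it 6.08-fold (log2 2.60, SE 0.13, adjusted p 1.19e-13), and 3.88-fold (log2 1.96, SE 0.11, adjusted p 1.16e-12) with JSH-23. JSH-23 raised it by 1.25 on the log2 scale (SE 0.15, adjusted p 3.69e-07) without LPS, the largest of its effects at rest among the tested members, and by 0.61 (SE 0.09, adjusted p 1.57e-05) with LPS. The interaction was -0.65 (SE 0.18, adjusted p 0.0136), a call that was lost without WT replicate 5 (-0.58, adjusted p 0.0513), without WT + JSH23 replicate 3 (-0.51, adjusted p 0.0537) and with limma on log2(TPM + 1) (-0.18, adjusted p 0.430).

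Dusp5 (chr19:53529109-53542431, plus strand) encodes a nuclear phosphatase specific for ERK. CPM values were 183, 174 and 184 in WT, 213, 226 and 200.1 in WTL, 139, 154 and 146 in WT + JSH23, and 107, 112 and 119 in WTL + JSH23. The 4 groups did not overlap, and LPS moved the gene in opposite directions without and with the inhibitor. It rose by 0.24 (SE 0.05, adjusted p 0.000157) without JSH-23 and fell by 0.38 (SE 0.05, adjusted p 1.62e-06) with it, an interaction of -0.62 (SE 0.07, adjusted p 3.37e-06). The rise without JSH-23 depended on the scaling: with limma on log2(TPM + 1) the change was -0.09 (adjusted p 0.183), where the median of all genes was -0.26. JSH-23 lowered Dusp5 by 0.30 (SE 0.05, adjusted p 3.45e-05) at rest and by 0.92 (SE 0.05, adjusted p 2.12e-12) after LPS, on the log2 scale. Its count was fractional in 11 of 12 libraries, which means that some read pairs also matched another gene.

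Dusp6 (chr10:99263231-99267489, plus strand) encodes a cytoplasmic phosphatase specific for ERK, and its transcript is widely used as a readout of ERK activity. It was the one tested member that LPS lowered in both settings. The values were 6.97, 7.68 and 6.35 CPM in WT, 1.98, 1.50 and 1.66 in WTL, 3.99, 4.92 and 4.08 in WT + JSH23, and 1.17, 1.83 and 0.907 in WTL + JSH23. Every library without LPS lay above every library with it. The fall was 4.11-fold (log2 -2.04, SE 0.17, adjusted p 7.43e-10) without JSH-23 and 3.30-fold (log2 -1.72, SE 0.19, adjusted p 1.02e-07) with it, and the interaction of 0.32 (95% interval -0.24 to 0.87, adjusted p 0.467) did not pass. JSH-23 lowered it at rest by 0.70 on the log2 scale (SE 0.14, adjusted p 0.000382). After LPS the difference was -0.38 (95% interval -0.85 to 0.08, adjusted p 0.169), and without WTL + JSH23 replicate 2, the highest library of its group, it was -0.70 and passed (adjusted p 0.0172). Only 21 to 51 counts lay behind each LPS library, and its effective length as estimated by RSEM ran from 1749 to 2547 bases over the libraries, the widest span among the members.

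Dusp10 and Dusp16 encode phosphatases that act on JNK and p38. Dusp10 (chr1:184013302-184075636, plus strand) was low, at 1.71, 2.48 and 2.41 CPM in WT, 2.13, 1.70 and 2.07 in WTL, 2.58, 2.35 and 2.65 in WT + JSH23, and 3.01, 2.71 and 3.41 in WTL + JSH23. The WTL + JSH23 libraries lay above all others, and WT overlapped both WTL and WT + JSH23. Neither LPS comparison passed, with log2 changes of -0.17 (95% interval -0.54 to 0.20, adjusted p 0.412) and 0.26 (95% interval -0.08 to 0.61, adjusted p 0.189). On log2(TPM + 1) with limma the first was -0.26 and passed (adjusted p 0.0202). After LPS it was higher with JSH-23 by 0.63 (SE 0.18, adjusted p 0.00485), and the difference without LPS was 0.20 (adjusted p 0.363). Its interaction of 0.43 (95% interval -0.07 to 0.94, adjusted p 0.244) did not pass.

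Dusp16 (chr6:134715468-134792625, minus strand) stood at 78.3, 70.3 and 69.1 CPM in WT and 67.7, 71.3 and 69.4 in WT + JSH23, and these groups overlapped. It rose to 228, 222 and 203 in WTL and to 158, 169.9 and 148 in WTL + JSH23, which were separate from each other. LPS raised it 3.00-fold (log2 1.58, SE 0.06, adjusted p 4.13e-16) and, with JSH-23, 2.28-fold (log2 1.19, SE 0.06, adjusted p 1.17e-13). JSH-23 lowered it after LPS by 0.46 on the log2 scale (SE 0.05, adjusted p 3.52e-07), while at rest the difference was -0.06 (95% interval -0.18 to 0.06, adjusted p 0.407). The interaction was -0.39 (SE 0.08, adjusted p 0.00141), a call that was lost with limma on log2(TPM + 1) (-0.22, adjusted p 0.194).

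**Figure D2:**
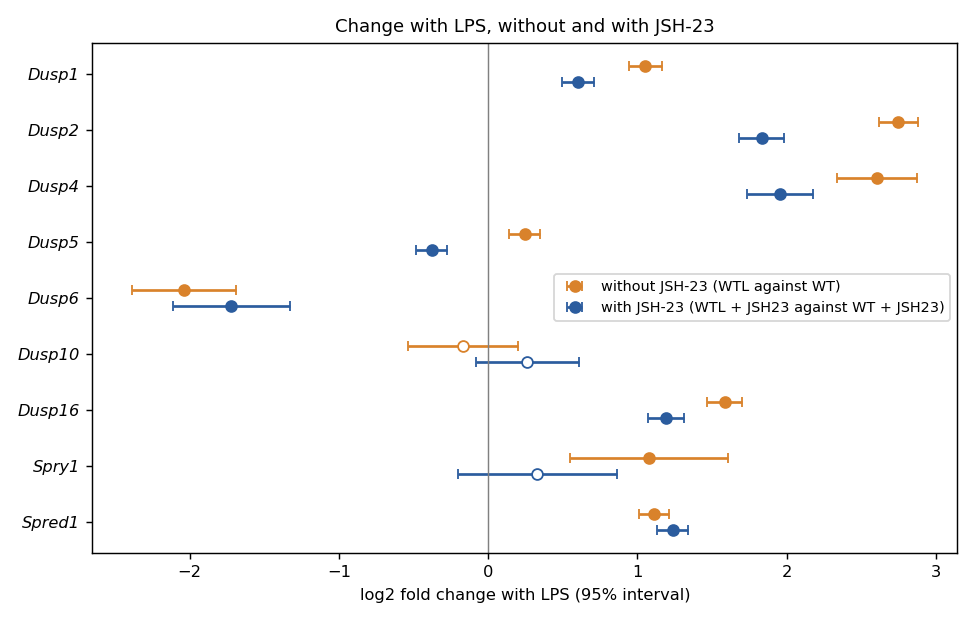
Log2 fold change with LPS (horizontal axis) of the 9 tested members without JSH-23 (orange) and with it (blue), with bars for the 95% interval and open points where the adjusted p was 0.05 or more. Dusp5 lay on opposite sides of 0 in the 2 settings, and Spred1 was at 1.11 and 1.23.

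Spry1 (chr3:37639947-37644598, plus strand) and Spry2 (chr14:105891947-105896819, minus strand) encode Sprouty proteins, and both were scarce. Spry1 was at 0.826, 0.683 and 0.690 CPM in WT, 1.70, 1.63 and 1.29 in WTL, 1.11, 1.09 and 0.749 in WT + JSH23, and 1.52, 1.31 and 0.821 in WTL + JSH23. All WTL libraries lay above all WT libraries, while the JSH-23 groups overlapped each other. LPS raised it by 1.08 on the log2 scale (SE 0.25, adjusted p 0.000863) without JSH-23, and with it the change was 0.33 (95% interval -0.20 to 0.86, adjusted p 0.293). That difference in response was not established, as the interaction was -0.75 (95% interval -1.50 to 0.0033, adjusted p 0.165). Spry2 had 10, 8 and 3 counts in WT, 6, 6 and 7 in WTL, 7, 7 and 6 in WT + JSH23, and 5, 10 and 2 in WTL + JSH23, with overlapping groups. In the fit without a filter its LPS change was 0.19 (95% interval -0.96 to 1.33), so that even a 2-fold difference was not detectable at this depth.

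Spred1 (chr2:117121374-117182279, plus strand) encodes a Sprouty-related inhibitor that recruits neurofibromin to Ras. It stood at 189, 200.5 and 182 CPM in WT, 419.5, 408 and 404 in WTL, 117, 121 and 115 in WT + JSH23, and 287, 292 and 253 in WTL + JSH23. The groups were all separate, with WT + JSH23 lowest. LPS raised it 2.16-fold (log2 1.11, SE 0.05, adjusted p 1.42e-14) without and 2.35-fold (log2 1.23, SE 0.05, adjusted p 6.79e-15) with JSH-23. JSH-23 lowered it by 0.69 on the log2 scale (SE 0.05, adjusted p 2.05e-10) at rest and by 0.57 (SE 0.05, adjusted p 2.25e-09) after LPS. Its interaction was 0.13 (95% interval -0.02 to 0.27, adjusted p 0.229) and passed only without WTL + JSH23 replicate 3, the lowest library of its group (0.19, adjusted p 0.0200).

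After LPS, JSH-23 raised Dusp1, Dusp4 and Dusp10, where 24.5% of all tested genes rose, and lowered Dusp2, Dusp5, Dusp16 and Spred1, where 24.2% fell. Without LPS it raised Dusp1 and Dusp4 (18.8% of all genes) and lowered Dusp2, Dusp5, Dusp6 and Spred1 (22.1%). These shares of members lay near those of all genes in the upward direction, and a split in both directions was also seen over all genes. The member medians were -0.38 after LPS and -0.06 at rest, against 0.02 and -0.01 for all genes. Of the 9 members, 5 had a smaller or more negative LPS change with JSH-23 by the interaction test (Dusp1, Dusp2, Dusp4, Dusp5 and Dusp16), where 8.44% of all genes did. No member had the opposite interaction in edgeR, DESeq2 or limma, nor at an unadjusted edgeR p under 0.05, where 9.54% of all genes were called at an adjusted p, except Spred1 when WTL + JSH23 replicate 3 was left out. The 5 fell into 3 kinds by level: Dusp1 and Dusp4 were higher with JSH-23 both at rest and after LPS, Dusp2 and Dusp5 were lower in both, and Dusp16 was lower after LPS, with no difference passing the test at rest. The LPS and JSH-23 comparisons share libraries and are not independent of each other. The summed macrophage markers given above also moved with JSH-23, and their part in these differences was not tested.

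**Figure D3:**
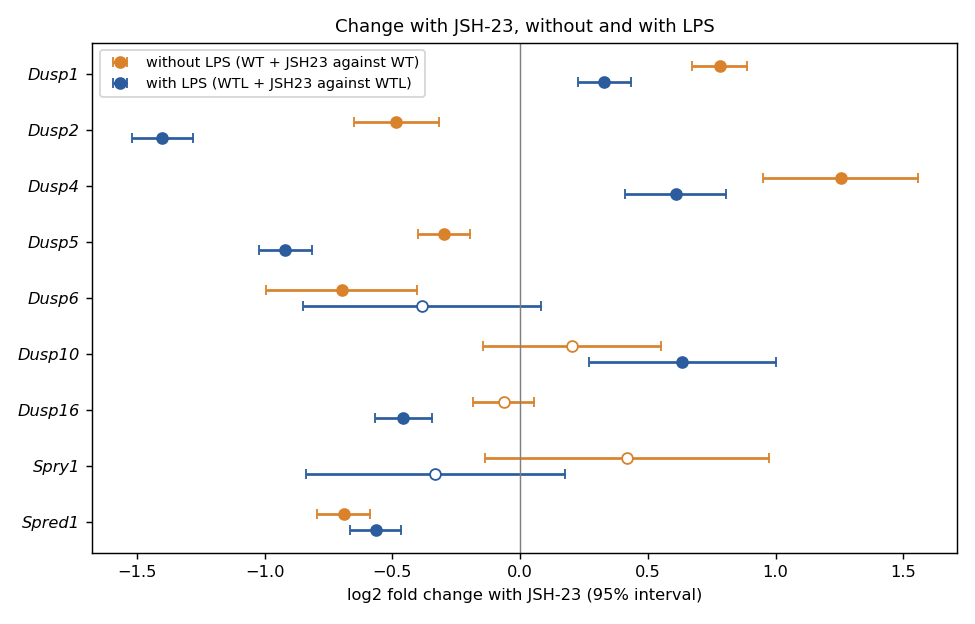
Log2 fold change with JSH-23 (horizontal axis) of the 9 tested members without LPS (orange) and with LPS (blue), with bars for the 95% interval and open points where the adjusted p was 0.05 or more. Dusp1 and Dusp4 lay right of 0 in both settings, and Dusp2, Dusp5 and Spred1 left of it.

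On the per-length TPM scale, the most abundant member changed with the condition. In WT the order was Dusp5 (131 TPM), Dusp1 (74.1), Spred1 (54.4), Dusp16 (27.1), Dusp2 (16.0) and Dusp6 (5.21), with no overlap between neighbours, followed by Dusp10 (1.40) and Dusp4 (1.31), which overlapped, Spry1 (0.52) and Spry2 (0.187). In WTL, Dusp5 (123 TPM) and Dusp1 (118) overlapped, Spred1 (93.7), Dusp2 (83.5), Dusp16 (64.9) and Dusp4 (6.31) followed as separate steps, and Dusp6 (1.01), Dusp10 (0.993) and Spry1 (0.88) overlapped. With JSH-23, Dusp1 was first in both groups, at 124 TPM ahead of Dusp5 at 106 without LPS, and at 161 TPM with LPS, where Dusp5 (70.9) and Spred1 (69.1) overlapped behind it.

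The summed TPM of the 7 DUSP members was 256 ± 6.73 (SD, n = 3) in WT, 398 ± 9.43 in WTL, 274 ± 14.98 in WT + JSH23 and 333 ± 9.25 in WTL + JSH23. Dusp5 made up 51.1% of it in WT, 30.9% in WTL, 38.8% in WT + JSH23 and 21.3% in WTL + JSH23. The share of Dusp1 was 28.9% in WT and 29.7% in WTL, and 45.1% and 48.5% in the matching JSH-23 groups. Dusp2 went from 6.26% in WT to between 20.9% and 21.1% in the WTL libraries, and from 4.11% to 10.6% with JSH-23. The TPM ratio of Dusp5 to Dusp1 was 1.77 in WT, 1.04 in WTL, 0.861 in WT + JSH23 and 0.440 in WTL + JSH23. Among the scarce members, the ratio of Dusp4 to Dusp6 was 0.256 in WT, 6.39 in WTL, 1.06 in WT + JSH23 and 13.6 in WTL + JSH23, with library values of 0.196 to 0.323, 4.98 to 7.33, 0.984 to 1.17 and 8.94 to 16.1.

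**Figure D4:**
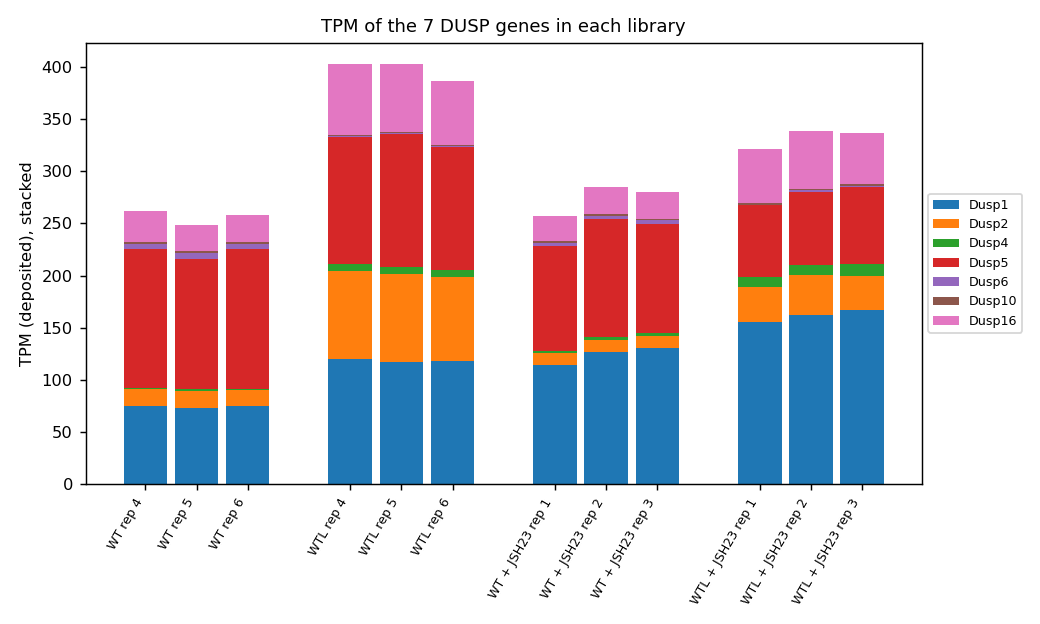
Deposited TPM (vertical axis, from 0) of the 7 DUSP members, stacked for each of the 12 libraries. The sums ran from 249 to 262 in WT and from 387 to 403 in WTL, and the Dusp5 segment was smallest and the Dusp1 segment largest in WTL + JSH23.

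The other genes of the pathway were taken from lists by function. Of 17 other DUSP genes, 13 were tested, and LPS raised 3 and lowered 7, where 31.0% of all tested genes rose and 34.7% fell. Dusp14, a small phosphatase that acts on the TAK1 pathway, went from 1.24 CPM in WT to 15.8 in WTL (log2 3.68) and had an interaction of -0.99 (adjusted p 0.00128). Dusp28 fell from 11.9 to 5.12 CPM (log2 -1.22), with an interaction of 0.45 (adjusted p 0.0375). Dusp3, a phosphatase of ERK and JNK, fell from 67.2 to 47.5 CPM (log2 -0.50), while Dusp11, an RNA phosphatase, rose from 119 to 135 CPM (log2 0.19). Of the 3 other Sprouty and Spred genes tested, 2 rose and 1 fell (31.0% and 34.7% of all genes). Spred2, a paralog of Spred1, rose from 5.10 to 15.3 CPM (log2 1.58), and Spred3 fell from 12.5 to 7.87 CPM (log2 -0.67), with an interaction of 0.35 (adjusted p 0.0192).

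Among the MAPKs and the kinases that activate them, 25 of 29 were tested, and LPS raised 10 and lowered 8, shares near the 31.0% and 34.7% of all genes, with a median log2 change of 0.04. Map3k14 (NIK), a kinase of the non-canonical NF-κB pathway, fell from 263 to 42.3 CPM (log2 -2.64), and Map3k4 from 12.8 to 3.81 CPM (log2 -1.76). Both fell less with JSH-23, with interactions of 0.88 (adjusted p 2.95e-08) and 1.11 (adjusted p 5.46e-06). Map3k8 (TPL2), which links Toll-like receptors to ERK, rose from 24.1 to 70.6 CPM (log2 1.55), and Mapk8 (JNK1) from 15.5 to 37.6 CPM (log2 1.28).

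All 16 genes of Ras and its adaptors were tested, of which 7 rose and 5 fell with LPS (31.0% and 34.7% of all genes). Rasa2, a Ras GTPase-activating protein, rose from 76.8 to 256 CPM (log2 1.74), Rras2 from 65.4 to 119 (log2 0.87), Ptpn11 (SHP2) from 109.6 to 171 (log2 0.64) and Nf1 (neurofibromin, the partner of Spred1) from 48.6 to 62.5 (log2 0.36). Rasa2 and Rras2 rose less with JSH-23, with interactions of -0.37 (adjusted p 0.000213) and -0.42 (adjusted p 0.000174).

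Of the 10 kinases activated by MAPKs, 4 rose and 4 fell with LPS, near the 31.0% and 34.7% of all genes. Mapkapk2 (MK2), which p38 activates, rose from 407 to 774 CPM (log2 0.93) and Rps6ka2 from 19.8 to 76.7 CPM (log2 1.95), while Rps6ka1 fell from 84.3 to 46.9 CPM (log2 -0.85) and Mknk1 from 35.9 to 22.3 CPM (log2 -0.69). The interactions of Rps6ka1 and Mknk1 were 0.51 (adjusted p 6.42e-05) and 0.32 (adjusted p 0.00624). Transcripts known to follow ERK activity were mixed, with 5 of 9 tested genes higher and 3 lower after LPS (31.0% and 34.7% of all genes). Epha4 rose from 6.08 to 63.3 CPM (log2 3.38), Phlda1 from 4.31 to 36.7 (log2 3.09) and Ier3 from 15.9 to 49.6 (log2 1.64), and Fos, an immediate-early AP-1 subunit, fell from 10.4 to 3.04 (log2 -1.76). The interaction of Fos was 0.97 (adjusted p 0.00166) and that of Epha4 -0.44 (adjusted p 0.00557).

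**Figure D5:**
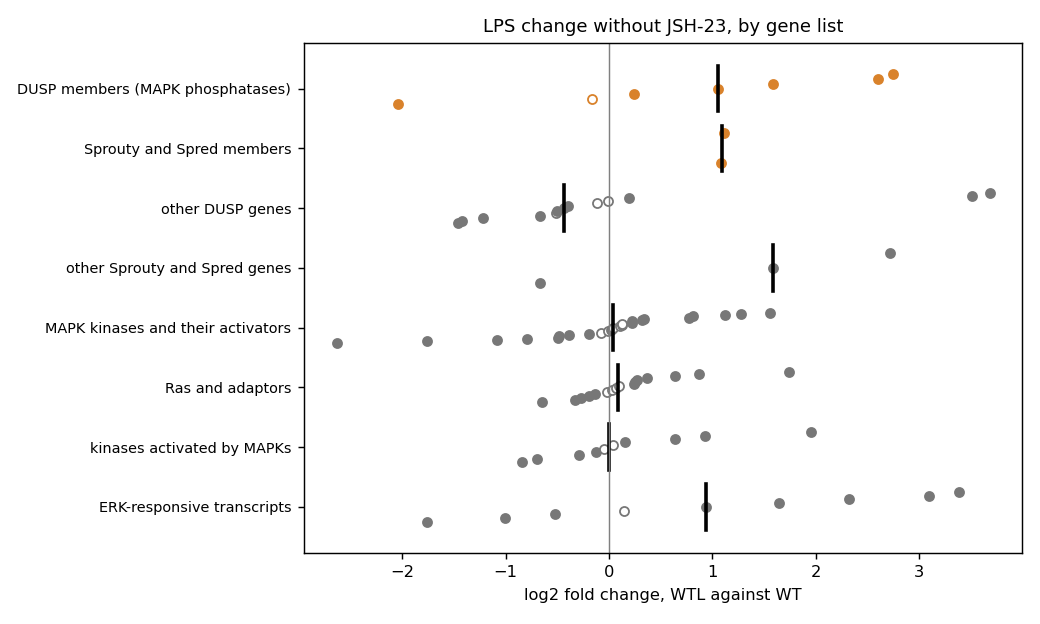
Log2 fold change of WTL against WT (horizontal axis) for each tested gene of the members (orange) and of the other pathway lists (grey), with open points where the adjusted p was 0.05 or more and a black bar at the median of each list. The DUSP members had a median of 1.05, and the 13 other DUSP genes one of -0.43. Members and lists were chosen with earlier results of these data known, so this contrast is a description and not a test.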

How the data were processed

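RNA-seq was analysed for 12 libraries in 4 groups of 3. Per the study's methods, reads were trimmed by the authors with Trim Galore and aligned to mm10 with STAR (version 2.6.0c in the submitters' processing notes), and genes were quantified with RSEM. The authors deposited expected counts, in which read pairs matching several genes are divided between them, and TPM, which are scaled per transcript length and library. RSEM effective lengths, also deposited, were used for description. The labels name rRNA depletion and the study's methods a stranded poly(A) kit, and the choice was not settled here. CD11c+ bead selection is described in the methods.

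Gene symbols and positions came from GENCODE M21, which 55154 of 55335 identifiers matched without their version. Expected counts were rounded, filtered with filterByExpr and scaled by TMM, and a quasi-likelihood F-test in edgeR 4.0.16 (R 4.3.3) was fitted with 1 mean per group and 8 residual degrees of freedom. Benjamini-Hochberg adjustment ran over the 14357 genes kept. SE is the absolute log2 change divided by the square root of F. The p values measure the spread between libraries, which may be partly technical. Replicate numbers were left out of the main fit because the study does not use them, and a block on them was an alternative. Same-numbered libraries correlated at 0.0142 to 0.0614 in their deviations from the group means, and different-numbered ones at -0.0564 to 0.0355. Alternatives were DESeq2 1.42.0, limma 3.58.1 on log2(TPM + 1) and log2(TPM + 0.1), other scalings and filters, a replicate block and leaving out each library.

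The members and lists were chosen with earlier results of these data known. From each other list, up to 4 genes with the largest LPS change and up to 2 with the largest interaction were named, among genes that passed the test and reached 10 CPM in the highest group.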

Additional observations from a re-analysis of the deposited data

Results flagged for a closer look

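The LPS change differed between cells without and with JSH-23 for 5 members by the interaction test in edgeR, given as the log2 change with JSH-23 minus that without it. The difference was -0.45 for Dusp1, -0.92 for Dusp2, -0.65 for Dusp4, -0.62 for Dusp5 and -0.39 for Dusp16. For Dusp5 on TMM-scaled CPM, all 3 WTL libraries lay above all 3 WT libraries, and all 3 WTL + JSH23 libraries lay below all 3 WT + JSH23 libraries. As TPM, WTL (122, 128 and 118) and WT (134, 125 and 134) overlapped, with the lower mean in WTL, while the JSH-23 groups stayed separate.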

How the results depend on the processing

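The counts of members that rose or fell were the same under the other count-based scalings, filters and DESeq2. With limma on log2(TPM + 1) or log2(TPM + 0.1), 2 members fell with LPS and 3 had a lower interaction, and the LPS change of Dusp5 was -0.0925 and -0.0931. On log2(TPM + 1), 3 members rose more than 2-fold with LPS, against 6 in edgeR and 6 in DESeq2, and 0 rose more than 2-fold with JSH-23 at rest, against 1 in each of those tools. On the log2(TPM + 1) scale the median LPS change of all genes was -0.26, so Dusp5 lay above that median on either scale. With a change of more than 2-fold required in addition, 1 member fell with LPS after JSH-23, 0 rose and 1 fell with JSH-23 after LPS, 1 rose and 0 fell with JSH-23 at rest, and 0 had a lower interaction, and each of these counts of 0 was also 0 in DESeq2, limma and at an unadjusted edgeR p under 0.05. Leaving out 1 library at a time gave 0 to 1 members with a higher interaction, the 1 being Spred1 without WTL + JSH23 replicate 3. The share of higher genes among all called genes was 47.2% for LPS alone, 50.3% for LPS in the presence of JSH-23, 50.3% for JSH-23 after LPS and 53.1% for the interaction, and it was 19.6%, 24.7%, 69.3% and 81.5% with limma on log2(TPM + 1), 37.7% with upper quartile scaling for LPS with JSH-23, and 41.1% with DESeq2 for the interaction. Spry2, Spry1 and the LPS libraries of Dusp6 were limited by their low counts.

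With a replicate block on the number shared within each JSH-23 setting, the member counts were 7 higher and 1 lower for LPS, 5 and 2 for LPS with JSH-23, and 0 and 5 for the interaction, as without it. Over all genes the interaction was called for 1559 genes higher and 1409 lower with the block, against 1370 and 1212 without it. All same-numbered libraries correlated above 0 in their deviations from the group means. Among different-numbered ones, only WT + JSH23 replicate 1 with WTL + JSH23 replicate 2 did (0.0355, against 0.0142 with its own number). Deviations within a group sum to 0, so values above 0 for same-numbered libraries push the different-numbered ones below 0. The sign of the different-numbered values is therefore not a separate observation. Whether a shared number marks paired cultures was not settled.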
